A study of Homo sapiens with 28 samples.

Results

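TMEM30A and the phospholipid flippases were described in Kelly cells, a MYCN-amplified human neuroblastoma line, across 6 microRNA mimics and a scrambled control. The 9 genes were taken by symbol from a table of 30887 genes: the beta subunit genes TMEM30A and TMEM30B and the P4-ATPase genes ATP8A1, ATP8B2, ATP9A, ATP9B, ATP10D, ATP11A and ATP11B. They were chosen by their levels and changes in these same libraries, so their changes under the mimics are a description and carry no p-value. Of the 9, 8 passed the filter on low counts that left 15058 genes for testing, and TMEM30B did not.

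Flippases move phospholipids such as phosphatidylserine and phosphatidylethanolamine from the outer or luminal leaflet of a membrane to the cytosolic one, against the gradient that scramblases would collapse. The catalytic subunit is a P4-ATPase, a membrane pump that uses ATP. Most P4-ATPases need a beta subunit of the TMEM30 (CDC50) family to leave the endoplasmic reticulum and to work, and TMEM30A is the broadly expressed one. ATP9A and ATP9B are known to leave the endoplasmic reticulum without it. Loss of TMEM30A function is known to leave phosphatidylserine exposed on the cell surface.

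The cells were transfected with a mimic of miR-99b-5p, of miR-380-3p, of miR-485-3p, of miR-100-3p, of miR-1915-3p or of miR-1283, or with a scrambled control mimic. Every group received 25 nM of a mimic by reverse transfection, was harvested 48 h later and has 4 libraries, 28 in all. A mimic is a synthetic duplex that delivers one mature microRNA, and all libraries come from a single line. Nothing in the labels says that a group's libraries are from separate cultures, so errors and tests measure the spread between these libraries, which may be technical. The libraries held 10.99 to 23.3 M expected counts (median 15.0 M). All 10 adrenergic neuroblastoma markers examined were detected, among them MYCN at 3231 to 6919 CPM (counts scaled by library size). Of 8 markers of other cell types 3 passed the filter, all at low levels: COL1A1 of fibroblasts at 3.391 to 13.17 CPM, VWF of endothelium at 0.7459 to 3.92 CPM and KRT19 of epithelium at 0.9468 to 3.392 CPM. All 3 were called lower under miR-99b-5p, 1 was called higher and 1 lower under miR-380-3p, and 1 lower under miR-485-3p. Of the 10 adrenergic markers, 4 were called lower under miR-99b-5p, 4 under miR-485-3p and 1 under miR-1915-3p. Under miR-380-3p 2 were called higher and 4 lower, and under miR-100-3p 1 higher and 3 lower. Of all tested genes, 8.48% were called lower under miR-99b-5p, 5.25% under miR-380-3p and 10.6% under miR-485-3p. The share was 3.05% under miR-100-3p and 0.232% under miR-1915-3p. Called higher were 5.6% under miR-380-3p and 2.9% under miR-100-3p. The part of these markers in the results was not tested. PECAM1 and COL1A2, also markers of endothelium and fibroblasts, had at most 1 count in any library, EPCAM had at most 10, and PTPRC and CD3E were not analysed here. Libraries differed in their slope of log2 CPM on transcript GC content, which ran from -5.42 to -0.0766, and this slope is given beside the results it accompanies.

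The mature sequences of the 6 microRNAs are shown because the first question for each flippase gene is whether its 3′ UTR holds a match. They were taken from RefSeq (GRCh38.p14) and run 5′ to 3′, with the seed, bases 2 to 8, in capitals.
miR-99b-5p: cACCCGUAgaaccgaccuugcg
miR-380-3p: uAUGUAAUaugguccacaucuu
miR-485-3p: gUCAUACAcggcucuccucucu
miR-100-3p: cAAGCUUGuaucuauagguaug
miR-1915-3p: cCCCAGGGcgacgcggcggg
miR-1283: uCUACAAAggaaagcgcuuucu

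No seed was shared. Any pair of the 6 had the same base at 0 to 3 of the 7 seed positions. In the genome these mature sequences lie at chr19:51692618-51692639 (miR-99b-5p), chr14:101025056-101025077 (miR-380-3p), chr14:101055464-101055485 (miR-485-3p), chr11:122152240-122152261 (miR-100-3p) and chr10:21496576-21496595 (miR-1915-3p), and miR-1283 has copies at chr19:53688494-53688515 and chr19:53758245-53758266.

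TMEM30A carries matches to 3 of these seeds. Its spliced 3′ UTR, in transcript TMEM30A-201 of GENCODE v29, is 3178 bases long and lies at chr6:75252924-75256101 on the minus strand (GRCh38). The heptamers complementary to bases 2 to 8 were searched on the transcript strand. The windows below run 5′ to 3′ with the heptamer in capitals, and they mark the sequences through which a mimic could pair with this message. The last window shows the only match to miR-99b-5p, a hexamer complementary to bases 2 to 7, followed by an A.
miR-380-3p site in TMEM30A: ttaatcagaggtggcttaATTACATtgaaa
miR-485-3p first site in TMEM30A: gagaaagggattacaagaTGTATGAgtata
miR-485-3p second site in TMEM30A: ccattgccttagaattatTGTATGAcacat
miR-100-3p site in TMEM30A: tccagtacagttatttgtCAAGCTTagctt
miR-99b-5p hexamer in TMEM30A: tgacttctaaaaatatatgACGGGTataaa

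The miR-380-3p heptamer lies at chr6:75254758-75254764, starting 1338 bases after the stop codon. The miR-485-3p heptamers lie at chr6:75255698-75255704 and chr6:75253178-75253184, 398 and 2918 bases after it. The miR-100-3p heptamer, which is followed by an A, lies at chr6:75255536-75255542, 560 bases after it. The miR-99b-5p hexamer lies at chr6:75255919-75255924, 178 bases after it. A miR-100-3p hexamer followed by an A, apart from the heptamer, lies at chr6:75255351-75255356, 746 bases after the stop codon. No heptamer for miR-99b-5p, miR-1915-3p or miR-1283 was found in this UTR, and none for any of the 6 in the coding sequence of the same transcript.

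Among 2155 tested genes whose longest 3′ UTR was within 25% of that of TMEM30A, 23.7% held the miR-380-3p heptamer ATTACAT, 22.4% the miR-485-3p heptamer TGTATGA and 15.9% the miR-100-3p heptamer CAAGCTT. The heptamers absent from TMEM30A were held by 2.27% (miR-99b-5p, TACGGGT), 29.6% (miR-1915-3p, CCCTGGG) and 33.0% (miR-1283, TTTGTAG) of these genes. The 3 heptamers occurred together in 20 of the 2155 genes (0.928%). They were combined because TMEM30A holds them, so this share is no test of an unusual combination. A miR-99b-5p hexamer followed by A was present in 46 of them (2.13%). A match is a description of the letters and was not tested for binding.

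**Figure D1:**
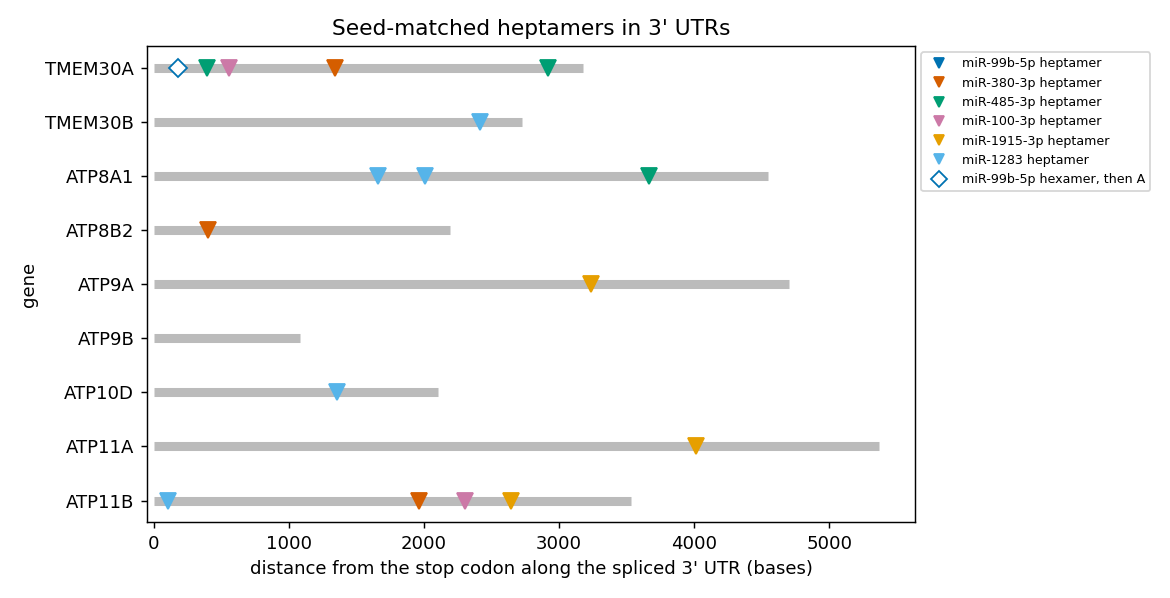
Seed matches along the spliced 3′ UTRs of the 9 genes, plotted as distance from the stop codon in bases; grey bars are the UTRs, triangles the heptamers and the open diamond the miR-99b-5p hexamer followed by A in TMEM30A. TMEM30A holds 1 heptamer for miR-380-3p, 2 for miR-485-3p and 1 for miR-100-3p, and ATP8B2 holds 1 for miR-380-3p. Other hexamers, among them that of miR-100-3p followed by A in TMEM30A, are not drawn.

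TMEM30A (ENSG00000112697) fell under 4 of the 6 mimics and was lowest under miR-380-3p, miR-99b-5p and miR-485-3p, whose libraries overlapped. Expression is given as CPM scaled with TMM factors, and a gene is called when the edgeR quasi-likelihood test gave a Benjamini-Hochberg adjusted p under 0.05 over all 15058 genes. The 6 comparisons share the same 4 scrambled control libraries. In these bulk samples fewer cells and less RNA per cell cannot be told apart.

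Under miR-99b-5p the 4 libraries had 25.43, 21.34, 24.89 and 25.05 CPM of TMEM30A, against 79.06, 80.02, 65.19 and 68.46 CPM in the scrambled control. The groups did not overlap, and every miR-99b-5p library was below the lowest control library. TMEM30A averaged 24.2 ± 1.90 CPM under miR-99b-5p and 73.2 ± 7.47 CPM in the control (SD, n = 4 each), a log2 change of -1.60 ± 0.154 (SE), which is 33.0% of the control level.

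Under miR-380-3p the libraries had 31.07, 20.68, 18.3 and 22.87 CPM of TMEM30A, again all below the control libraries. The mean was 23.2 ± 5.55 CPM (SD, n = 4), with a log2 change of -1.66 ± 0.155, or 31.6% of control.

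Under miR-485-3p the libraries had 21.92, 19.15, 27.63 and 36.97 CPM of TMEM30A. None reached the lowest control library, but the SD relative to the mean, 29.8%, was the highest of the 7 groups. The mean was 26.4 ± 7.87 CPM (SD, n = 4), with a log2 change of -1.47 ± 0.154. Within this group the library at 36.97 CPM had a GC slope of -4.27 and the library at 19.15 CPM a slope of -0.0766, the lowest and highest of the group. The TMEM30A transcript is 37.9% GC, against a median of 48.4% over 12535 genes. With the GC slope as a covariate, added after the data were seen, the log2 change of TMEM30A was -1.48 ± 0.111 under miR-485-3p, -1.74 ± 0.114 under miR-99b-5p and -1.75 ± 0.113 under miR-380-3p.

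Under miR-100-3p the fall was smaller. The libraries had 50.95, 52.59, 45.67 and 45.36 CPM of TMEM30A, all below the control libraries and all above every library of the 3 mimics just described. The mean was 48.6 ± 3.68 CPM (SD, n = 4), with a log2 change of -0.59 ± 0.149, or 66.4% of control. This change was no longer called without miR-100-3p replicate 3 (-0.56), control replicate 1 (-0.55) or control replicate 2 (-0.54), and with the GC slope as a covariate it was -0.67 ± 0.106 and was called.

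TMEM30A was not called under the other two mimics. Under miR-1915-3p the libraries had 106.6, 80.81, 106 and 87.42 CPM, and the lowest of them lay just above the highest control library at 80.02 CPM. The mean was 95.2 ± 13.1 CPM (SD, n = 4), with a log2 change of 0.38 ± 0.147. Replicates 1 and 4 of this group, at 106.6 and 87.42 CPM, are labelled with an added suffix of unknown meaning, and every miR-1915-3p value here includes these libraries. Under miR-1283 the libraries had 94.04, 96.52, 89.37 and 78.35 CPM, which overlap with the control. The mean was 89.6 ± 8.05 CPM (SD, n = 4), with a log2 change of 0.29 ± 0.146.

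In order of mean level, TMEM30A was lowest under miR-380-3p, then miR-99b-5p, then miR-485-3p, then miR-100-3p, followed by the scrambled control, miR-1283 and, highest, miR-1915-3p. The libraries of miR-380-3p, miR-99b-5p and miR-485-3p overlapped between neighbours, and the neighbouring means differed by 0.062 ± 0.157 and 0.13 ± 0.156 on the log2 scale. The step between miR-100-3p and miR-485-3p was 0.88 ± 0.154, with no overlap. The step between miR-1915-3p and miR-1283 was 0.087 ± 0.145, with overlap.

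**Figure D2:**
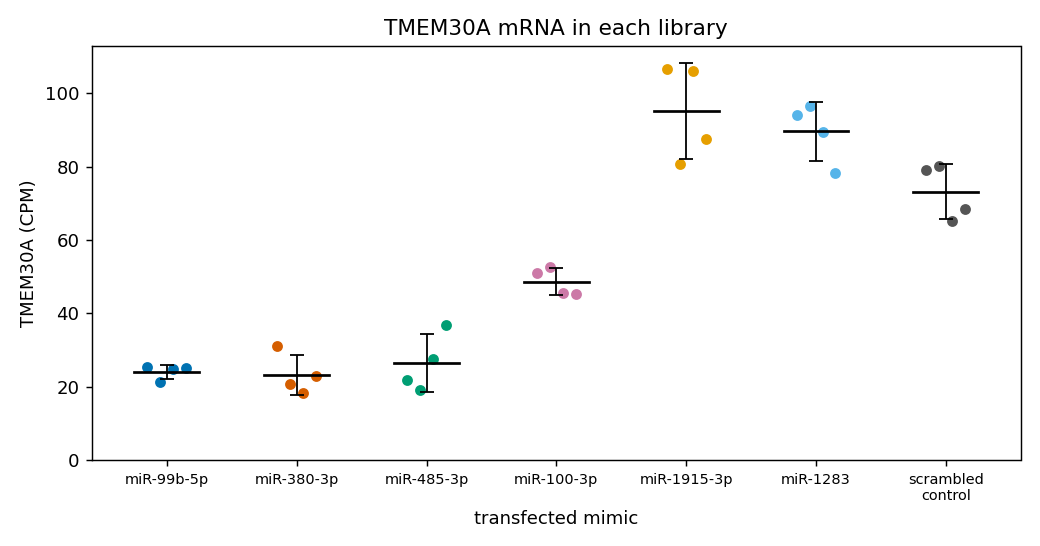
TMEM30A mRNA in CPM (vertical axis, from 0) in the 4 libraries of each mimic and of the scrambled control; points are libraries, long bars means and error bars SD. All libraries of the 4 leftmost mimics, the highest at 52.59 CPM, lie below the lowest control library at 65.19 CPM.

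Of the 7 catalytic subunit genes, 3 were called under 1 mimic each and 4 under none. The largest of these changes was that of ATP8B2 (ENSG00000143515), a P4-ATPase known to transport phosphatidylcholine. Under miR-380-3p its libraries had 89.83, 81.28, 75.32 and 66 CPM, against 126.9, 130, 125.4 and 136.1 CPM in the scrambled control. The groups did not overlap. ATP8B2 averaged 78.1 ± 10.0 CPM under miR-380-3p and 129.6 ± 4.71 CPM in the control (SD, n = 4 each), a log2 change of -0.73 ± 0.0819, or 60.2% of control. Under the other 5 mimics its log2 change lay between -0.048 and 0.098, with overlapping libraries and no call. In order of mean level the step between miR-100-3p, at 125.3 ± 16.8 CPM, and miR-380-3p was 0.68 ± 0.0819 on the log2 scale without overlap, and all later neighbours up to miR-1915-3p, at 138.8 ± 5.57 CPM, overlapped.

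The 3′ UTR of ATP8B2 in transcript ATP8B2-202 is 2189 bases long and holds 1 heptamer of the 6 searched, that of miR-380-3p, followed by an A. It lies at chr1:154349517-154349523 on the plus strand (GRCh38), 399 bases after the stop codon, and is shown because ATP8B2 was called under this mimic and under none of the other 5.
miR-380-3p site in ATP8B2: tagtgcctctgttcctgaATTACATaagaa

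Among 2374 tested genes with UTRs of like length, 16.9% held this heptamer. A match did not come with a call in every gene. ATP11B also holds 1 miR-380-3p heptamer, followed by a T, and its log2 change under that mimic was 0.037 ± 0.158. ATP11B holds 1 miR-100-3p heptamer as well, with a log2 change of -0.15 ± 0.159 under miR-100-3p. ATP8A1 holds 1 miR-485-3p heptamer, with a log2 change of -0.087 ± 0.163 under miR-485-3p.

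ATP11A (ENSG00000068650), a plasma membrane flippase of phosphatidylserine and phosphatidylethanolamine, was called lower under miR-485-3p. Its libraries had 65.1, 54.89, 59.8 and 76.01 CPM, against 84.78, 81.31, 70.99 and 93.1 CPM in the scrambled control. The groups overlapped at the highest miR-485-3p library. The log2 change was -0.37 ± 0.118, and the call was lost without miR-485-3p replicate 2 (-0.30) or 3 (-0.36), or without control replicate 1 (-0.35) or 5 (-0.30). Its UTR held no miR-485-3p heptamer. Over the 7 groups its mean ran between 64.0 ± 9.06 CPM under miR-485-3p and 90.5 ± 8.78 CPM under miR-100-3p, with 82.6 ± 9.15 CPM in the control (SD, n = 4 each), and the libraries of neighbouring groups in that order overlapped throughout.

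ATP9A (ENSG00000054793), an endosomal and trans-Golgi P4-ATPase, was called higher under miR-99b-5p. Its libraries had 44.08, 47.06, 47.52 and 50.64 CPM, against 40.29, 38.61, 35.99 and 44.09 CPM in the scrambled control, so that the lowest miR-99b-5p library lay just under the highest control library. The log2 change was 0.25 ± 0.0872. The call was lost with the GC slope as a covariate (0.18), with upper-quartile scaling (0.24), without the low-count filter (0.27) and with a mean CPM of at least 5 (0.23). It was also lost without miR-99b-5p replicate 3 (0.25), 4 (0.25) or 7 (0.22), and without control replicate 1 (0.26), 2 (0.24) or 4 (0.21). In the other 5 mimic groups ATP9A averaged 36.3 ± 3.24 to 40.5 ± 2.22 CPM, against 39.7 ± 3.40 CPM in the control (SD, n = 4 each).

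The remaining 4 measured genes were not called under any mimic. ATP8A1 (ENSG00000124406), a Golgi and endosomal phosphatidylserine flippase, had 54.45, 56.55, 57.44 and 58.44 CPM under miR-99b-5p, against 52.08, 48.41, 35.53 and 46.12 CPM in the scrambled control. These libraries did not overlap, and the log2 change was 0.32 ± 0.161. ATP8A1 averaged 55.8 ± 8.50 CPM under miR-380-3p, where the libraries overlapped with the control, and 42.5 ± 4.95 to 48.8 ± 6.33 CPM under the other 4 mimics, against 45.5 ± 7.11 CPM in the control (SD, n = 4 each). ATP10D (ENSG00000145246), a flippase of glucosylceramide, had 7.349, 6.473, 7.083 and 10.2 CPM under miR-485-3p, against 10.49, 10.03, 9.184 and 10.64 CPM in the scrambled control. One miR-485-3p library, replicate 5, lay among the control libraries, and the log2 change was -0.38 ± 0.158. Without that library it was -0.54 and was called. Its group means ran between 7.78 ± 1.66 CPM under miR-485-3p and 11.8 ± 1.5 CPM under miR-99b-5p, with 10.1 ± 0.656 CPM in the control (SD, n = 4 each).

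ATP9B (ENSG00000166377), the trans-Golgi paralogue of ATP9A, had 8.348, 8.369, 8.843 and 8.176 CPM under miR-1915-3p, against 6.727, 8.055, 7.98 and 7.162 CPM in the scrambled control. The groups did not overlap, but the difference, 0.17 ± 0.102 on the log2 scale, was not called. Its group means ran between 7.36 ± 0.589 CPM under miR-485-3p and 8.75 ± 1.04 CPM under miR-100-3p, and libraries of neighbouring groups in that order overlapped.

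ATP11B (ENSG00000058063), an endosomal P4-ATPase, stayed within log2 changes of -0.15 and 0.052 over the 6 mimics, and its libraries overlapped with the control under each. Its spread was widest under miR-485-3p, at 31.02, 24.16, 34.78 and 47.09 CPM, where replicate 5 was again highest and replicate 2 lowest, as for TMEM30A, ATP8A1, ATP9A, ATP10D and ATP11A. The part of the GC slope in this shared order was not tested.

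**Figure D3:**
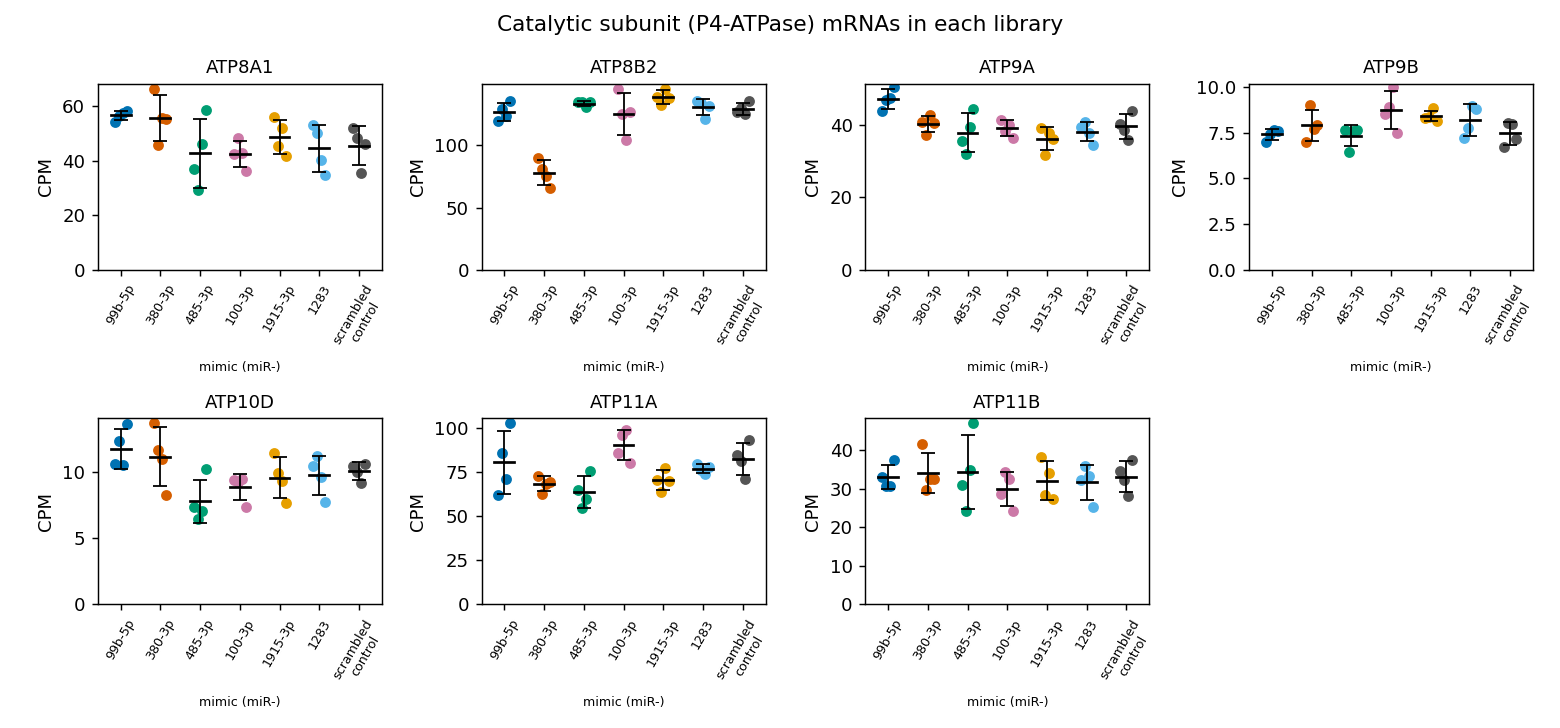
CPM of the 7 measured P4-ATPase genes (vertical axes, from 0, a scale per gene) in the 4 libraries of each mimic and of the scrambled control; points are libraries, long bars means and error bars SD. The miR-380-3p libraries of ATP8B2, between 66 and 89.83 CPM, lie below every other library of that gene.

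Counted over the 8 measured genes, 1 was called higher and 1 lower under miR-99b-5p, where 8.11% of all tested genes were called higher and 8.48% lower. Under miR-380-3p none was called higher and 2 lower, where 5.6% of all genes were called higher and 5.25% lower. Under miR-485-3p none was called higher and 2 lower, against 10.5% and 10.6% of all genes. Under miR-100-3p none was called higher and 1 lower, against 2.9% and 3.05% of all genes. None of the 8 was called under miR-1915-3p, where 0.0133% of all genes were called higher and 0.232% lower, nor under miR-1283, where 0% were called higher and 0.0199% lower. For miR-1283, 453 of the 15058 tested genes had an unadjusted edgeR p under 0.05. That share is below the 0.05 that would be met on average with no change in any gene. DESeq2 called 1 gene higher and 4 lower for miR-1283.

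The median log2 change of the 8 genes lay between -0.076 and 0.031 over the 6 mimics, against -0.012 to 0.025 for all genes. The counts are those of genes chosen with these comparisons known.

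**Figure D4:**
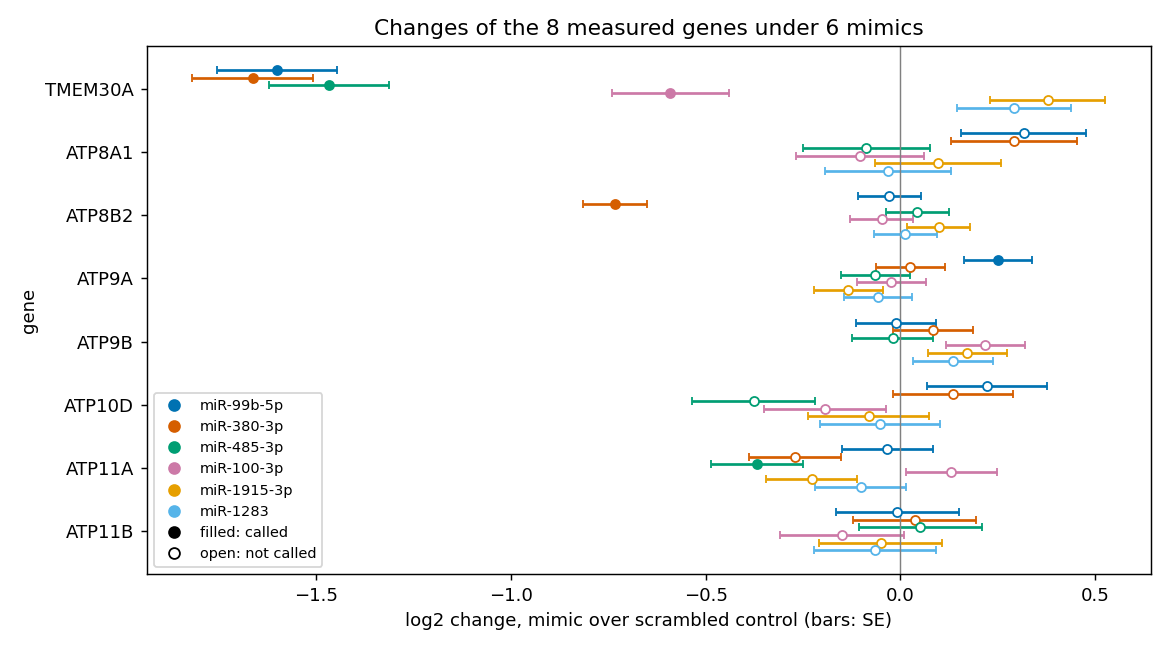
Log2 change of each of the 8 measured genes under each mimic over the scrambled control (horizontal axis; bars are SE, filled points are called). TMEM30A lies between -1.66 and -0.59 under 4 mimics, and ATP8B2 at -0.73 under miR-380-3p, apart from the other values of that gene.

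Levels of different genes can be compared only per length. In CPM per kilobase of the deposited gene length, the scrambled control had 23.0 ± 0.836 of ATP8B2, 16.1 ± 1.64 of TMEM30A and 13.0 ± 1.44 of ATP11A (SD, n = 4). ATP8A1 followed at 7.06 ± 1.10, ATP11B at 6.18 ± 0.743 and ATP9A at 5.09 ± 0.435. The lowest were ATP9B at 2.90 ± 0.250 and ATP10D at 2.16 ± 0.141 CPM per kilobase. With union exon lengths from GENCODE v29, the first 3 kept their order, with TMEM30A at 14.3 and ATP11A at 8.20 CPM per kilobase, but the others did not. ATP9A, at 4.90, was then above ATP8A1, at 4.51, and ATP11B, at 3.75, and ATP10D, at 1.37, was above ATP9B, at 1.27.

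TMEM30B (ENSG00000182107), the other beta subunit gene on the list, had 0 counts in all 28 libraries. With a floor of 3 counts per library this allows a level of up to 0.13 to 0.274 CPM, for counting error only. Among the TMEM30 genes, TMEM30A was the one kept by the filter. TMEM30C had no more than 4 counts in any library, and so did ATP8A2, ATP8B1, ATP8B3, ATP8B4, ATP10A and ATP10B.

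The balance of the subunits was expressed as the level of TMEM30A over the summed level of 5 P4-ATPases of the 9 genes that are known to pair with it or belong to the families that do, ATP8A1, ATP8B2, ATP10D, ATP11A and ATP11B, all in CPM per kilobase. This ratio was 0.101 ± 0.0137 under miR-99b-5p, 0.12 ± 0.0185 under miR-380-3p and 0.118 ± 0.0222 under miR-485-3p, against 0.313 ± 0.0301 in the scrambled control (SD, n = 4 each). It was 0.211 ± 0.00479 under miR-100-3p. The ratio was 0.405 ± 0.0296 under miR-1915-3p and 0.391 ± 0.0209 under miR-1283, and in both groups the lowest library, at 0.369 and 0.363, was above the highest control library, at 0.34.

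The denominator varied less than the numerator. The summed P4-ATPase level was lowest under miR-380-3p, at 42.0 ± 4.38 CPM per kilobase, and 51.4 ± 3.82 in the control. These ratios contain the TMEM30A values and were not tested. They compare messenger RNAs, and protein amounts were not measured.

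**Figure D5:**
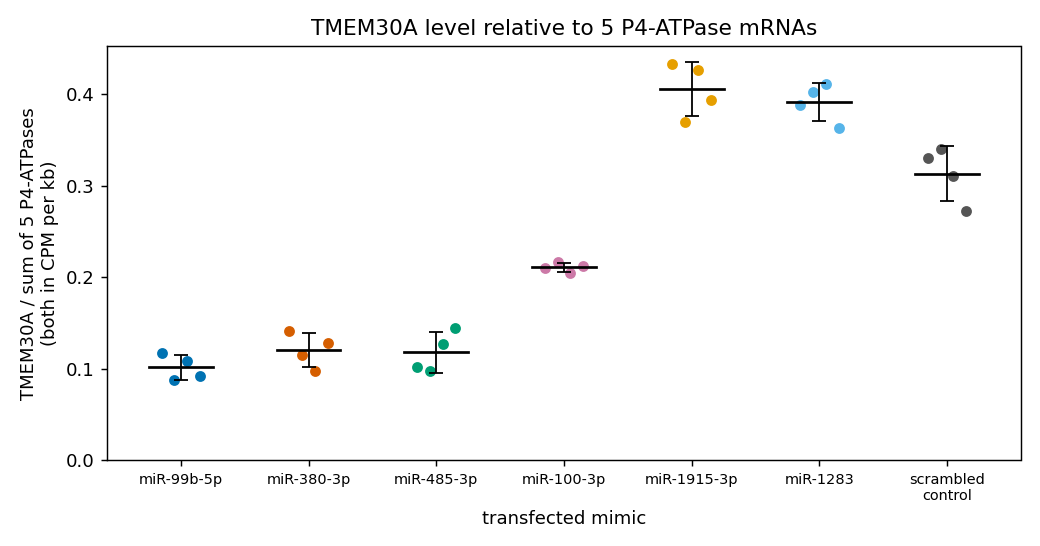
Ratio of the TMEM30A level to the summed level of 5 P4-ATPase mRNAs, both in CPM per kilobase (vertical axis, from 0), in each library by mimic and scrambled control; long bars are means and error bars SD. The libraries of the 3 leftmost mimics lie between 0.0874 and 0.145, and the control libraries between 0.272 and 0.34.

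The genes with the pattern of change most like that of TMEM30A were sought by the Euclidean distance between the 6 log2 changes, over the 11478 tested genes whose log2 CPM averaged 2 or more. The median distance was 2.87. The nearest was SLC18A1, a vesicular monoamine transporter, at 1.28, with log2 changes of -1.27 under miR-99b-5p, -0.98 under miR-380-3p, -0.56 under miR-485-3p and -0.30 under miR-100-3p. SCUBE1, a secreted and membrane-bound EGF-domain protein, followed at 1.34, with -1.46, -0.95, -1.01 and 0.046 under the same mimics. CH17-164J11.1 was at 1.38, HTR3A, a serotonin receptor channel subunit, at 1.49, SCART1 at 1.53 and RP5-940J5.9 at 1.56. Like TMEM30A, CH17-164J11.1 (-1.52, -0.58, -0.73 and -0.49) and HTR3A (-1.46, -1.09, -0.35 and -0.40) were called lower under each of the same mimics, without overlap with the control. SLC18A1, SCUBE1 and SCART1 were not called under miR-100-3p. RP5-940J5.9 was called under no mimic, and its libraries overlapped with the control under each. Its log2 changes were -0.80 ± 0.543, -1.04 ± 0.558, -0.64 ± 0.547 and -0.28 ± 0.529 under the same mimics, so its place among the nearest genes is uncertain.

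Even the nearest, SLC18A1, stood at -0.98 under miR-380-3p, where TMEM30A stood at -1.66, and at -0.56 under miR-485-3p, where TMEM30A stood at -1.47. The longest 3′ UTRs of SLC18A1, SCUBE1, HTR3A and SCART1 held no heptamer for any of the 4 mimics under which TMEM30A fell. Among genes of like UTR length, the share with each of these heptamers ran from 0.133% to 3.79% for HTR3A and from 3.78% to 44.6% for SCUBE1. By hexamers, SLC18A1 held 1 for miR-99b-5p, SCART1 held 1 for miR-485-3p, and SCUBE1 held 1 for miR-380-3p and 1 for miR-100-3p. HTR3A held none.

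Scramblases let phospholipids cross the membrane in both directions and so oppose flippases. Of 22 listed genes of scramblase families, whose members were not each checked for this activity, 14 were measured. Under miR-485-3p 1 was called higher and 3 lower, where 10.5% of all genes were called higher and 10.6% lower. The counts of this and the following lists stand beside the shares of all genes given above for each mimic, and lists this short are not read as differing from them. The lists were chosen with earlier results of these data known, and genes were named from them because they were called. Their adjusted p-values therefore mark the calls and are no separate support. ANO6, the calcium-activated phosphatidylserine scramblase, fell to 63.5 CPM under miR-485-3p, against 103.3 CPM in the scrambled control (log2 change -0.70 ± 0.114, edgeR adjusted p = 5.68e-05). The same gene rose under miR-99b-5p, to 135.4 CPM (log2 change 0.39 ± 0.112, edgeR adjusted p = 0.0162), and it was the 1 scramblase gene called higher there, a call lost without control replicate 4 (0.35). PLSCR1, an interferon-inducible phospholipid scramblase family member, fell under miR-485-3p by 0.86 on the log2 scale (SE 0.0977, edgeR adjusted p = 2.93e-07). PLSCR4 averaged under 1 CPM in both mimic groups and in the control, and was called lower under miR-485-3p and under miR-100-3p.

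Under miR-380-3p 1 scramblase gene was called lower, TMEM41B of the endoplasmic reticulum, at 14.6 CPM, against 21.6 CPM in the scrambled control. Its log2 change was -0.57 ± 0.152 (edgeR adjusted p = 0.0139), and it was not called without miR-380-3p replicate 2 (-0.45) or 3 (-0.50). Under miR-100-3p 1 scramblase gene was called higher and 1 lower. The median log2 change of the list lay between -0.054 and 0.10 over the 6 mimics, against -0.012 to 0.025 for all genes.

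ABC lipid exporters, which move lipids to the outer leaflet, were measured through all 9 listed genes. Under miR-99b-5p 1 was called higher and 3 lower, under miR-380-3p 2 higher and 1 lower, under miR-485-3p 1 higher and 2 lower, and under miR-100-3p 2 lower. ABCG1, a cholesterol exporter, rose to 10.7 CPM under miR-99b-5p, 10.4 CPM under miR-380-3p and 11.6 CPM under miR-485-3p, against 7.21 CPM in the scrambled control they share. Its edgeR adjusted p was 0.00227 under miR-99b-5p, 0.00761 under miR-380-3p and 0.000351 under miR-485-3p.

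ABCA7, a phospholipid exporter, was low, at 1.48 CPM under miR-99b-5p and 3.56 CPM in the scrambled control (log2 change -1.27 ± 0.217, edgeR adjusted p = 0.000128), and it was also called lower under miR-380-3p (-0.84 ± 0.213) and under miR-100-3p (-0.79 ± 0.211). Its miR-380-3p change was not called when miR-380-3p replicate 4 (-0.71) or control replicate 5 (-0.71) was left out, and its miR-100-3p change not without miR-100-3p replicate 2 (-0.73) or 3 (-0.68) or control replicate 5 (-0.66), in the fit of only the 8 libraries (-0.78), with no filter (-0.79) and with the replicate block (-0.73). ABCB1, a drug and lipid exporter, rose under miR-380-3p (0.52 ± 0.12, edgeR adjusted p = 0.00435) but fell under miR-485-3p, to 13.4 CPM, against 17.3 CPM in the scrambled control, with overlapping libraries (-0.36 ± 0.123, edgeR adjusted p = 0.0375). This second call was lost without any 1 of the 4 miR-485-3p libraries (-0.40 to -0.34), without control replicate 1 (-0.28), 2 (-0.32) or 4 (-0.36), with no filter (-0.38) and in the fit of only the 8 libraries (-0.38). ABCA1, a phospholipid and cholesterol exporter, also fell under miR-485-3p (-0.77 ± 0.193, edgeR adjusted p = 0.0046). The list median lay between -0.19 and 0.0029, beside the same range for all genes.

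Enzymes of phosphatidylserine and phosphatidylethanolamine synthesis were measured through 8 of 8 listed genes. PCYT2, the rate-limiting enzyme of the ethanolamine branch, was the 1 gene called lower under miR-99b-5p, at 11.5 CPM, against 17.8 CPM in the scrambled control (log2 change -0.62 ± 0.133, edgeR adjusted p = 0.00142). ETNK2, an ethanolamine kinase, was the 1 called lower under miR-380-3p (-0.68 ± 0.172, edgeR adjusted p = 0.00915), a call lost without miR-380-3p replicate 4 (-0.49) or in the fit of only the 8 libraries (-0.69). Under miR-485-3p 2 were called higher, and PCYT2 was one of them, at 24.8 CPM with overlapping libraries (0.48 ± 0.129, edgeR adjusted p = 0.00872), a call lost in the fit of only the 8 libraries (0.46). The list median lay between -0.16 and 0.069. Of 6 phosphatidylcholine synthesis genes, 1 was called lower under miR-99b-5p, 1 higher under miR-380-3p and 1 lower under miR-485-3p, with list medians between -0.056 and 0.091.

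Of 8 genes for trafficking partners of flippases, 2 were called higher and 1 lower under miR-485-3p and none under the other mimics, with list medians between -0.063 and 0.11. Other P-type ATPases, from the wider family to which flippases belong, were measured through 14 of 19 genes. Under miR-99b-5p 1 was called higher and 2 lower, under miR-380-3p 1 higher and 2 lower, under miR-485-3p 4 higher and 2 lower, and under miR-100-3p 2 higher. ATP13A3, a polyamine transporter, fell to 125.4 CPM under miR-380-3p, against 206.6 CPM in the scrambled control (log2 change -0.72 ± 0.145, edgeR adjusted p = 0.00123), and rose to 280.8 CPM under miR-485-3p with overlapping libraries (0.44 ± 0.143, edgeR adjusted p = 0.0273). The second call was lost without miR-485-3p replicate 3 (0.30) or 5 (0.33) or control replicate 2 (0.45) or 4 (0.38), and in the fit of only the 8 libraries (0.43). ATP2A3, a calcium pump of the endoplasmic reticulum, fell by 1.67 on the log2 scale under miR-485-3p (SE 0.180, edgeR adjusted p = 1.17e-07), and was also called lower under miR-99b-5p (-0.67 ± 0.164) and miR-380-3p (-0.75 ± 0.166). The list median lay between -0.017 and 0.18. None of these 6 lists had a gene called under miR-1915-3p or miR-1283.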

How the data were processed

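RNA was sequenced from 28 Kelly cell libraries made with a stranded mRNA kit, per the labels' protocols. Reads were aligned with STAR to hg19, per the submitters' processing notes. The counting tool and annotation are not given in the sources used here. The authors deposited 1 table of expected counts per gene (10.2% of values not whole) with a gene length column, which holds 1 other value per gene in bases. Whether counting used strand is not given, and exons of 4 of the 9 genes (TMEM30B, ATP9B, ATP10D and ATP11B) overlap a gene on the opposite strand in GENCODE v29.

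Counts were rounded and filtered with filterByExpr. They were scaled by TMM (factors 0.948 to 1.03) and fitted with edgeR 4.0.16 quasi-likelihood in R 4.3.3, with all 28 libraries and 7 groups in one means model (21 residual degrees of freedom, biological coefficient of variation 12.2%). Each mimic was compared with the scrambled control, with Benjamini-Hochberg adjustment across the 15058 genes and calls at an adjusted p under 0.05. The procedure was tested on simulated data in which every gene had the same spread. Of 100 genes set to change 2-fold under miR-380-3p, 90 were called, and of 100 set to change 1.5-fold, 60. There were 4 false calls. Smaller changes were not simulated, so a gene that was not called may still have changed. CPM per kilobase used the deposited length. The longest 3′ UTR of each gene of at least 50 bases was read from GENCODE v29 transcripts (GRCh38), and all 6 mature microRNAs matched RefSeq by name. The GC slope is the slope of log2 CPM (prior count 2) on the GC fraction of that transcript, known for 83.2% of tested genes.

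All 9 genes are named. From each list, genes were named that were called, changed by at least 0.5 on the log2 scale and did not overlap with the control, at most 4 a list and mimic, and some of these are given as counts only. One listed gene is not reported here. The genes and lists were chosen with earlier results of these data known. Alternatives were DESeq2 1.42.0, other scalings and filters, a replicate block, only the 8 libraries of a comparison and leaving out each library. The GC covariate was chosen after seeing the data. Same-numbered libraries of a mimic and the control correlated at -0.0923 to 0.303 over 17 pairs, 9 of them over 0.1. Differently numbered libraries were not set beside them, so whether the numbers pair libraries was not tested. The main fit took no pairing.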

Additional observations from a re-analysis of the deposited data

Results flagged for a closer look

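In 4 of 56 sets of 4 libraries (8 genes in 7 groups), 1 library lay far from the other 3 by Dixon's criterion, which chance meets in about 1 of 20 sets. TMEM30A was at 21.34 CPM in miR-99b-5p replicate 3, with the others at 24.89 to 25.43 CPM. ATP8B2 was at 130.6 CPM in miR-485-3p replicate 3, with the others at 134.6 to 134.7 CPM. ATP9B was at 6.473 CPM in miR-485-3p replicate 2, with the others at 7.605 to 7.674 CPM. ATP10D was at 7.373 CPM in miR-100-3p replicate 4, with the others at 9.241 to 9.504 CPM.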

How the results depend on the processing

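The log2 change of TMEM30A kept its direction under all 16 alternatives in each comparison, with a range of -1.74 to -1.50 under miR-99b-5p, -1.83 to -1.56 under miR-380-3p, -1.68 to -1.35 under miR-485-3p, -0.67 to -0.51 under miR-100-3p, 0.32 to 0.45 under miR-1915-3p and 0.22 to 0.37 under miR-1283. Over the 8 measured genes 768 values were recomputed, of which 747 kept their call and direction, 17 lost a call, 4 gained one and 0 called values turned direction. ATP8A1 under miR-99b-5p gained a call in the fit of only its 8 libraries (0.31), and ATP10D under miR-485-3p with the replicate block (-0.45), with the GC slope (-0.38) and without miR-485-3p replicate 5 (-0.54). Of 419 values of the other named genes, 29 lost a call and 0 gained one.

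Counts of called genes moved more. With the GC slope as a covariate, chosen after seeing the data, they were 1800 for miR-100-3p (897 without it), 181 for miR-1915-3p (37), 2760 for miR-380-3p (1634) and 4904 for miR-485-3p (3176). With no filter they were 564 for miR-100-3p and 1 for miR-1283 (3 with it), and in the fit of only 8 libraries 491 for miR-100-3p, 2000 for miR-485-3p and 0 for miR-1283. DESeq2 called 83 genes for miR-1915-3p (14 higher and 69 lower, against 2 and 35, and 49 and 132 with the GC slope) and 5 for miR-1283. Upper-quartile scaling gave 1188 higher and 1853 lower for miR-485-3p, against 1574 and 1602. Leaving out 1 library gave 1875 to 2492 for miR-99b-5p, 1056 to 1755 for miR-380-3p, 2240 to 3395 for miR-485-3p, 551 to 900 for miR-100-3p, 20 to 36 for miR-1915-3p and 0 to 2 for miR-1283. Counts moved by over 1.5 times without miR-380-3p replicate 3 (1056), without miR-100-3p replicate 3 (551) or control replicate 2 (575) or 5 (597) for miR-100-3p, and without miR-1915-3p replicate 3 (20) or 4 (21) or control replicate 2 (24) or 5 (20) for miR-1915-3p. For miR-1283 the count was 0 without miR-1283 replicate 1, 3 or 4 or control replicate 2 or 5. Whether the replicate numbers pair libraries was not tested. With the replicate block the counts were 2659 for miR-99b-5p, 1746 for miR-380-3p, 3500 for miR-485-3p, 976 for miR-100-3p, 50 for miR-1915-3p and 3 for miR-1283. The causes were not tested.

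The heptamer search in TMEM30A depends on its definition: with hexamers there were 1, 2, 2, 2, 0 and 1 matches for miR-99b-5p, then miR-380-3p, then miR-485-3p, then miR-100-3p, then miR-1915-3p and miR-1283. Depth limits what can be said of TMEM30B, with 0 counts.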
